A study of Homo sapiens with 23 samples.

Results

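The translation initiation and elongation factors described here are the protein-coding genes of the GENCODE annotation whose symbols start with EIF1 to EIF6, EEF1 or EEF2. There were 71 such genes among 19906 protein-coding genes and 58592 genes in all. Of these, 66 passed the filter on low counts and were tested with 17743 genes in all. RNA was measured in 23 libraries of SUDHL5, an established cell line from a diffuse large B cell lymphoma, treated in culture with vehicle (DMSO, 0.1% of the medium) or with a compound in the same vehicle. The compounds were CDK-TCIP1, a bivalent molecule that brings the transcriptional kinase CDK9 to the repressor BCL6, and 2 compounds labelled Neg1 and Neg2. DMSO was harvested at 4 h (3 libraries). Cells received CDK-TCIP1 at 30 nM for 4 h in 3 libraries. In the 2 h groups 2 libraries received it at 10 nM, 4 at 30 nM and 3 at 100 nM. Neg1 and Neg2 were given at 30 nM, with 2 libraries each at 2 h and at 4 h. All groups are the same unmodified line. DMSO at 2 h was not analysed here, so comparisons of 2 h groups with DMSO differ in time as well as in compound.

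Initiation factors bring the small ribosomal subunit to the capped end of an mRNA and to its start codon. The eIF4F complex (cap-binding eIF4E, scaffold eIF4G and helicase eIF4A) recruits the mRNA, eIF2 delivers the initiator tRNA, eIF2B recharges eIF2 with GTP, and eIF3 is the large scaffold that holds these parts together. Elongation factors then carry each aminoacyl-tRNA to the ribosome (eEF1A, recharged by the eEF1B subunits) and move the ribosome along (eEF2). Many mRNAs of the elongation machinery begin with a 5′ terminal oligopyrimidine (TOP) tract, a run of C and T after the cap through which mTOR and LARP1 control their translation. A high output of this machinery is a known feature of B cell lymphomas driven by MYC.

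Library totals ran from 17396484 to 26373153 estimated counts. The 7 markers of germinal centre B cells summed to 2020 to 2850 CPM (estimated counts divided by the TMM-adjusted library total and scaled to a common size) per library. The sum was lowest in the 4 h CDK-TCIP1 group (2020 to 2180 CPM). In that group 5 of the 7 fell against DMSO and 0 rose, where 19.3% of all tested genes fell and 17.5% rose. The part of these markers in the changes at 4 h was not tested. The markers of T and NK, myeloid, erythroid, and epithelial or fibroblast cells summed to at most 3.69 CPM. HBB was at 0 CPM in DMSO and in the 4 h CDK-TCIP1 group. ALAS2, the only one of the 3 erythroid markers that passed the filter, had a mean of 0.0805 CPM in DMSO and 1.03 CPM at 4 h and was called higher (log2 3.62 ± 0.97, edgeR adjusted p = 0.00448). Replicate 1 of CDK-TCIP1 at 100 nM stood apart from its group on the second principal component, at 62.8 against 23.5 and 24.9. Results were also computed without this library and replicate 1 of Neg2 at 2 h, which an earlier analysis of these data had singled out; in a group of 2 neither library can be said to stand apart. Nothing in the labels states that replicates came from separate cultures. The spread behind each p-value is that of these samples alone and may be technical. Fold changes are relative to the bulk of genes. In the deposited TPM, which are shares of all transcripts, the median of the 13041 tested genes with at least 1 TPM in DMSO lay below DMSO by a log2 ratio of -0.43 at 100 nM, -0.24 at 30 nM and 2 h, -0.13 at 10 nM and -0.17 at 30 nM and 4 h, so TPM are used here only for levels within a group. On raw TPM the sign of a change, called or not, can differ: EEF1A1 had a mean of 8100 TPM in DMSO and 7530 TPM at 4 h. EIF3M, called higher at 100 nM and 2 h, had 464 TPM in DMSO and 377 TPM at 100 nM. EEF1D, also called higher there, rose in TPM as well, from 597 to 756 TPM. In bulk RNA, fewer cells of a type and less RNA per cell cannot be told apart.

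Per length, the elongation factors were the most abundant members. In DMSO the translation factors together made up 2.37% of TPM, and the 6 eEF1 genes alone 1.15%. EEF1A1, which delivers aminoacyl-tRNA, stood first at 8100 ± 41.3 TPM (SD, n = 3). EEF1B2 (1390 ± 39.2 TPM), EEF2 (1350 ± 26.8 TPM) and EEF1G (1350 ± 25.2 TPM) followed and did not differ beyond their spread. EIF5A (923 ± 26.6 TPM), EIF1 (734 ± 15.5 TPM) and EIF4A1 (636 ± 15.5 TPM) came next, in that order and with no overlap of mean ± SD. Cap-binding EIF4E stood at 182 ± 7.23 TPM, and its scaffold EIF4G1, at 205 ± 11.3 TPM, was lower than the non-canonical scaffold EIF4G2 (510 ± 12.1 TPM). The eIF2B subunits lay between 24.3 and 57.1 TPM. EEF1A2, the muscle and neuron form of eEF1A, read only 0.0653 TPM. It read 0, 0.0478 and 0.504 CPM in DMSO, 0.273, 0.276 and 0.847 CPM in CDK-TCIP1 at 4 h, 0.164 and 0 CPM at 10 nM, 0.238, 0.318, 0.416 and 0.31 CPM at 30 nM and 1, 0.527 and 0.185 CPM at 100 nM and 2 h, and 0 to 0.398 CPM in Neg1 and Neg2. It was at 0 CPM in 6 of 23 libraries, and no comparison called it. The 5 members that did not pass the filter were EIF4E1B, EIF4E3, EIF1AY and the read-through genes EEF1AKMT4-ECE2 and EEF1E1-BLOC1S5.

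Start sequences are shown because the counts of rises and falls below are given for members with and without a pyrimidine run near the start. Where RefSeq gave several starts for a gene, the window with the longest run was taken. Each window holds the 15 bases before and the 15 from the RefSeq start (GRCh38.p14), 5′ to 3′, and the capitals mark its longest run of C or T. The first 8 have a run of at least 8 bases, and the last 4, from members that fell, do not. The windows shown are not a sample of both sets. EEF1G, not shown, has a longest run of 6 bases and rose (log2 0.52 at 100 nM). EIF4G3, not shown, has a run of 8 bases and fell at 30 nM and 4 h.
EEF1A1 (chr6:73521018-73521047, minus strand): gtcgccgtgaacgTTCTTTTTCgcaacggg
EEF1B2 (chr2:206159880-206159909, plus strand): ccggtctcttcgggTCCTTTTTCCTCTCTT
EEF2 (chr19:3985449-3985478, minus strand): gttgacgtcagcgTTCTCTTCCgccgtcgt
EIF3F (chr11:7987322-7987351, plus strand): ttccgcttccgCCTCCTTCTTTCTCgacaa
EIF3D (chr22:36529152-36529181, minus strand): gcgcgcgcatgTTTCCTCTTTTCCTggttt
EIF3K (chr19:38619173-38619202, plus strand): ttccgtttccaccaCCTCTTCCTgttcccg
EIF2S3 (chrX:24054941-24054970, plus strand): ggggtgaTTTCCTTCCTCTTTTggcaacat
EIF2D (chr1:206612451-206612480, minus strand): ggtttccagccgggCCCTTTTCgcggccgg
EIF5 (chr14:103334873-103334902, plus strand): atcccggcaCCCCTCggccgtgtgtcgctt
EIF2B4 (chr2:27370324-27370353, minus strand): CTCCgtgaccacggcgggcggagcctagga
EIF4A2 (chr3:186783562-186783591, plus strand): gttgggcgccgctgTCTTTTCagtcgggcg
EEF1E1 (chr6:8102534-8102563, minus strand): tgTTCTgcaggtctcgcgtctgccaggagc
The RefSeq starts used here covered 52 of the 66 tested members. Such a run was found in 14 of these (26.9%), against 18.4% of 10430 tested protein-coding genes with a start. No start was at hand for the other members, among them EEF1D, EEF2KMT, EIF2S2, EIF3A and EIF3L, which are in neither set below. At the highest dose, 100 nM for 2 h against DMSO, 12 of the 14 members with a run rose and 0 fell, while 11 of the 38 without one rose and 11 fell. Over all tested genes 42.6% were called in that comparison, 20.6% higher and 22.0% lower. The exceptions were EIF2A, at log2 0.06 ± 0.07 (SE), and EIF2S3B, a low-level copy of EIF2S3. Across all tested protein-coding genes the shares lay closer together: 28.4% of 1923 genes with a run rose and 25.0% fell, against 22.7% and 29.2% of 8507 without. At 30 nM and 4 h, 7 of the 14 rose and 1 fell (EIF4G3), and of the 38 others 5 rose and 18 fell (17.5% of all genes rose and 19.3% fell). The 49 members with a start and an average log2 CPM of at least 2 were also ranked. In them Spearman's rho between run length and log2 fold change at 100 nM was 0.43, and over 7872 protein-coding genes it was 0.06. With average log2 CPM in place of run length, rho was 0.47 over 61 members and 0.21 over 9487 protein-coding genes. Members with a run include some of the most abundant, and a part of run apart from level was not tested. These are descriptions across genes, which share the same libraries. A run in this window is not shown to be the transcribed TOP tract, since the start used in SUDHL5 was not measured. The counted runs of EIF3I, EIF4H and EIF4G3 end before the RefSeq start, so they lie outside an mRNA that begins there.

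**Figure D1:**
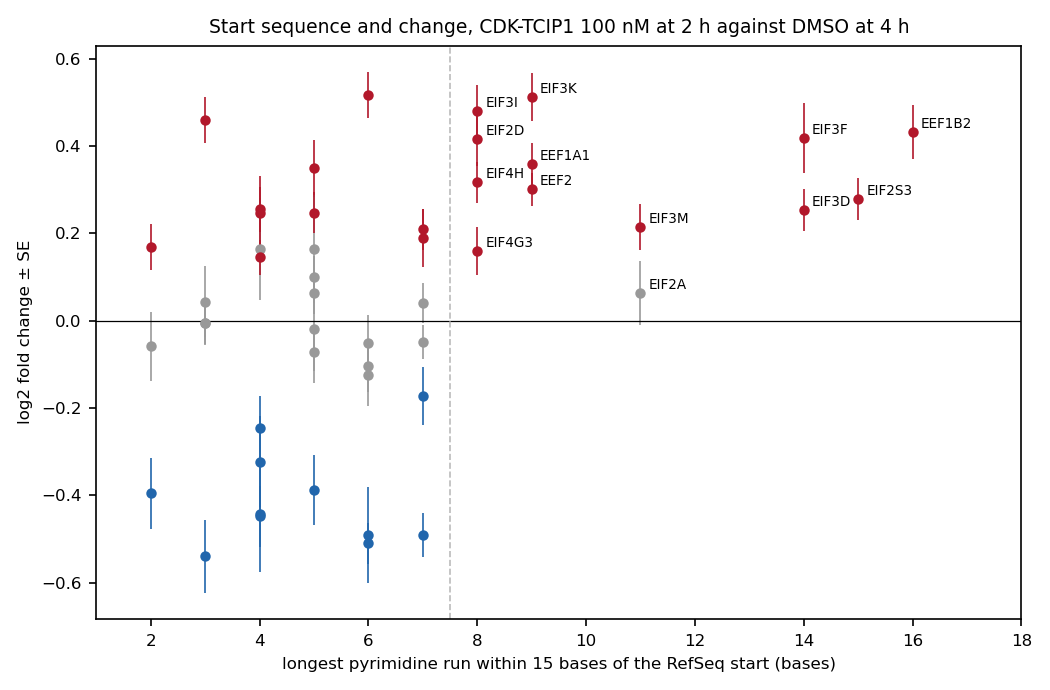
The x axis gives the longest pyrimidine run around the RefSeq start in bases. The y axis gives the log2 fold change ± SE at 100 nM and 2 h against DMSO at 4 h. Shown are the 49 members with a start and an average log2 CPM of at least 2. Red points rose, blue points fell and grey points did not pass. To the right of the dashed line, which separates runs of 8 bases or more, all points lie above 0, and all of them but EIF2A are red.

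Whether CDK-TCIP1 changed these mRNAs at matched time was asked at 4 h, with 30 nM against DMSO. The factors moved both ways: 15 of the 66 rose and 21 fell (edgeR quasi-likelihood test, adjusted p under 0.05). Of all tested genes 36.8% were called, 17.5% higher and 19.3% lower. The median log2 fold change of the 66 was -0.01, and that of all genes was 0.03. In 20 members the 3 treated libraries all read above the 3 DMSO libraries, and in 23 all below, where 24.5% and 24.1% of all tested genes did so. The changes were small, with none of the 53 members at or above an average log2 CPM of 5 outside the range from -0.56 to 0.73. Against Neg1 at 4 h, 16 rose and 15 fell (14.2% and 16.9% of all genes, 31.1% in all), and against Neg2 13 rose and 14 fell (14.4% and 16.8%, 31.1% in all). The count of 16 was 10 without Neg1 4 h replicate 1, and the count of 13 was 5 without Neg2 4 h replicate 1. These 3 comparisons share the treated libraries. Of the 36 members called against DMSO, 24 were called against both compounds, EEF1B2, EEF2KMT and EIF3I against Neg1 alone, and 9 against neither (EIF1B, EIF2AK4, EIF2B5, EIF2D, EIF3B, EIF4A3, EIF4EBP3, EIF4G1 and EIF4H), with the same sign in every case. Within 5 of the 10 role groups some members rose and others fell. The annotated spans of several members overlap genes on the opposite strand, among them EIF2D (RASSF5), EIF2S2 (RALY), EIF4G2 (CTR9) and EIF5A (GPS2). Counting by strand is not stated and overlap of exons was not measured, so these members may share reads with those genes.

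**Figure D2:**
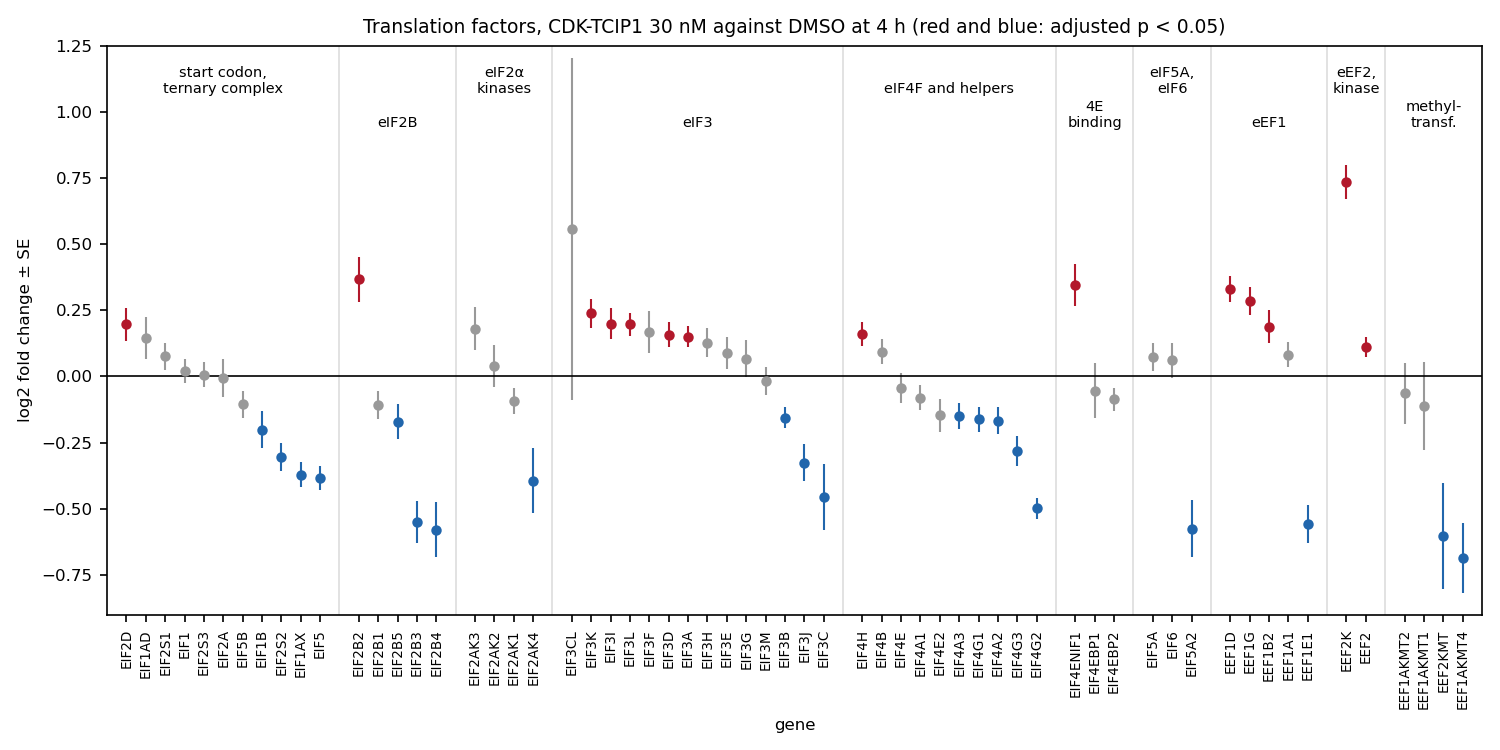
Each point is a member whose average log2 CPM was at least 2, grouped by role along the x axis, and the y axis gives its log2 fold change ± SE for CDK-TCIP1 30 nM against DMSO at 4 h. Red and blue points passed at an adjusted p under 0.05. EEF2K stands highest at 0.73, and called rises and falls both occur within 5 of the 10 role groups.

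Of the 6 eEF1 genes, 3 rose at 4 h and 1 fell (all tested genes: 17.5% higher, 19.3% lower). The 3 were the exchange-factor subunits. EEF1D read 378, 348 and 366 CPM in the 3 DMSO libraries and 447, 477 and 450 CPM in the 3 libraries of CDK-TCIP1 at 4 h, so that each treated library was above each DMSO library, and its log2 fold change was 0.33 ± 0.05, adjusted p = 7.44e-06 (edgeR). EEF1D (ENSG00000104529) encodes the delta subunit that reloads eEF1A with GTP. EEF1G (ENSG00000254772, chr11:62559601-62574086, minus strand), the gamma subunit of the same complex, rose by 0.29 ± 0.05, adjusted p = 0.000131 (edgeR), from 1290 ± 13.6 to 1570 ± 68.3 CPM (SD, n = 3 each). EEF1B2 (ENSG00000114942, chr2:206159585-206162928, plus strand), the beta subunit, rose by 0.19 ± 0.06, adjusted p = 0.0179 (edgeR). The substrate of these subunits changed less. EEF1A1 read 12000, 11700 and 12200 CPM in the 3 DMSO libraries and 12900, 12900 and 12200 CPM in the 3 libraries of CDK-TCIP1 at 4 h (ENSG00000156508, chr6:73515750-73523797, minus strand), with 13800 and 13100 CPM at 10 nM, 13800, 13800, 13000 and 13000 CPM at 30 nM and 16800, 14300 and 14900 CPM at 100 nM and 2 h, and the 8 libraries of Neg1 and Neg2 read 11100 to 11800 CPM. Its 4 h groups overlapped and it did not pass against DMSO (0.08 ± 0.05, adjusted p = 0.194, edgeR), but passed against Neg1 (0.17 ± 0.05, adjusted p = 0.0159, edgeR) and did not pass against Neg2 (0.14 ± 0.05, adjusted p = 0.0548, edgeR). EEF1B2 also passed against Neg1 and did not against Neg2 (0.18 ± 0.07, adjusted p = 0.0534, edgeR). EEF1E1 read 62.2, 65.4 and 64.9 CPM in the 3 DMSO libraries and 47, 41.5 and 42.2 CPM in the 3 libraries of CDK-TCIP1 at 4 h, a fall with no overlap (-0.56 ± 0.07, adjusted p = 8.08e-07, edgeR). EEF1E1 (ENSG00000124802, chr6:8073360-8102578, minus strand) shares the family's name but encodes p18, a scaffold of the multi-tRNA synthetase complex. For EEF1E1, at 2 h its libraries read 53.6 and 56.6 CPM at 10 nM, 52.2, 56.7, 49.8 and 51.6 CPM at 30 nM and 50.7, 51.3 and 60.4 CPM at 100 nM, and the 8 libraries of Neg1 and Neg2 read 57.5 to 65.1 CPM. EEF1B2 lost its call without DMSO replicate 1, DMSO replicate 2 or CDK-TCIP1 4 h replicate 1, with log2 fold changes of 0.17, 0.14 and 0.17, with edgeR adjusted p-values of 0.0738, 0.126 and 0.0705. EEF1A1 passed with protein-coding transcripts alone (0.13, edgeR adjusted p = 0.0307). With counts scaled by transcript length EEF1B2 did not pass (0.18, edgeR adjusted p = 0.0507).

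The kinase of eEF2 showed the largest rise among members above an average log2 CPM of 2. EEF2K read 70.9, 69 and 70.7 CPM in the 3 DMSO libraries and 120, 112 and 118 CPM in the 3 libraries of CDK-TCIP1 at 4 h, a gap with no overlap (0.73 ± 0.07, adjusted p = 1.99e-09, edgeR). EEF2K (ENSG00000103319, chr16:22206282-22288732, plus strand) phosphorylates eEF2 and thereby slows elongation. For EEF2K, at 2 h its libraries read 84.3 and 89.5 CPM at 10 nM, 82.7, 78.9, 83.3 and 95.7 CPM at 30 nM and 93, 88.2 and 86.9 CPM at 100 nM, all above the 8 libraries of Neg1 and Neg2 (61.9 to 74.5 CPM). Its substrate rose far less. EEF2 read 3270, 3170 and 3390 CPM in the 3 DMSO libraries and 3500, 3590 and 3530 CPM in the 3 libraries of CDK-TCIP1 at 4 h, where each treated library was above each DMSO library and the log2 fold change was 0.11 ± 0.04, adjusted p = 0.0261 (edgeR). For EEF2 (ENSG00000167658, chr19:3976056-3985469, minus strand), at 2 h its libraries read 3400 and 3500 CPM at 10 nM, 3690, 3600, 3570 and 3670 CPM at 30 nM and 4100, 4050 and 3960 CPM at 100 nM, and the 8 libraries of Neg1 and Neg2 read 2890 to 3160 CPM. EEF2 lost its call without DMSO replicate 1, DMSO replicate 2, CDK-TCIP1 4 h replicate 2 or CDK-TCIP1 4 h replicate 3, with log2 fold changes of 0.10, 0.08, 0.10 and 0.11, with edgeR adjusted p-values of 0.119, 0.211, 0.0845 and 0.0531. With length-scaled counts EEF2 did not pass either (0.08, adjusted p = 0.146, edgeR).

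Of the 5 tested lysine methyltransferases of the elongation factors, 2 fell, 3 did not pass and 0 rose at 4 h. Among all tested genes 17.5% rose and 19.3% fell. EEF1AKMT4 read 15.9, 19.3 and 19.9 CPM in the 3 DMSO libraries and 11.5, 10.1 and 12.5 CPM in the 3 libraries of CDK-TCIP1 at 4 h, below DMSO in every library (-0.69 ± 0.13, adjusted p = 0.000186, edgeR). For EEF1AKMT4 (ENSG00000284753, chr3:184249650-184259585, plus strand), a methyltransferase of eEF1A, at 2 h its libraries read 16.6 and 18 CPM at 10 nM, 13.9, 14.3, 13.2 and 19 CPM at 30 nM and 15.8, 11.8 and 12.8 CPM at 100 nM, and the 8 libraries of Neg1 and Neg2 read 17.9 to 20.6 CPM. EEF2KMT read 11.8, 8.89 and 10.8 CPM in the 3 DMSO libraries and 6.37, 9.15 and 5.27 CPM in the 3 libraries of CDK-TCIP1 at 4 h, which overlap, with a called fall of -0.60 ± 0.20, adjusted p = 0.0196 (log2, edgeR). For EEF2KMT (ENSG00000118894, chr16:5084304-5097808, minus strand), which methylates eEF2, at 2 h its libraries read 8.31 and 10.1 CPM at 10 nM, 8.28, 5.93, 8.01 and 6.77 CPM at 30 nM and 5.12, 5.97 and 7.76 CPM at 100 nM, and the 8 libraries of Neg1 and Neg2 read 8.19 to 12.8 CPM. EEF2KMT lost its call without DMSO replicate 1, CDK-TCIP1 4 h replicate 1 or CDK-TCIP1 4 h replicate 3, with log2 fold changes of -0.52, -0.55 and -0.44, with edgeR adjusted p-values of 0.0806, 0.0706 and 0.119. The annotated span of EEF2KMT overlaps that of ALG1 on the opposite strand by 3076 bases. Counting by strand is not stated and overlap of exons was not measured, so whether the pair share reads is not known. It did not pass with protein-coding transcripts alone (-0.48, adjusted p = 0.235, edgeR).

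**Figure D3:**
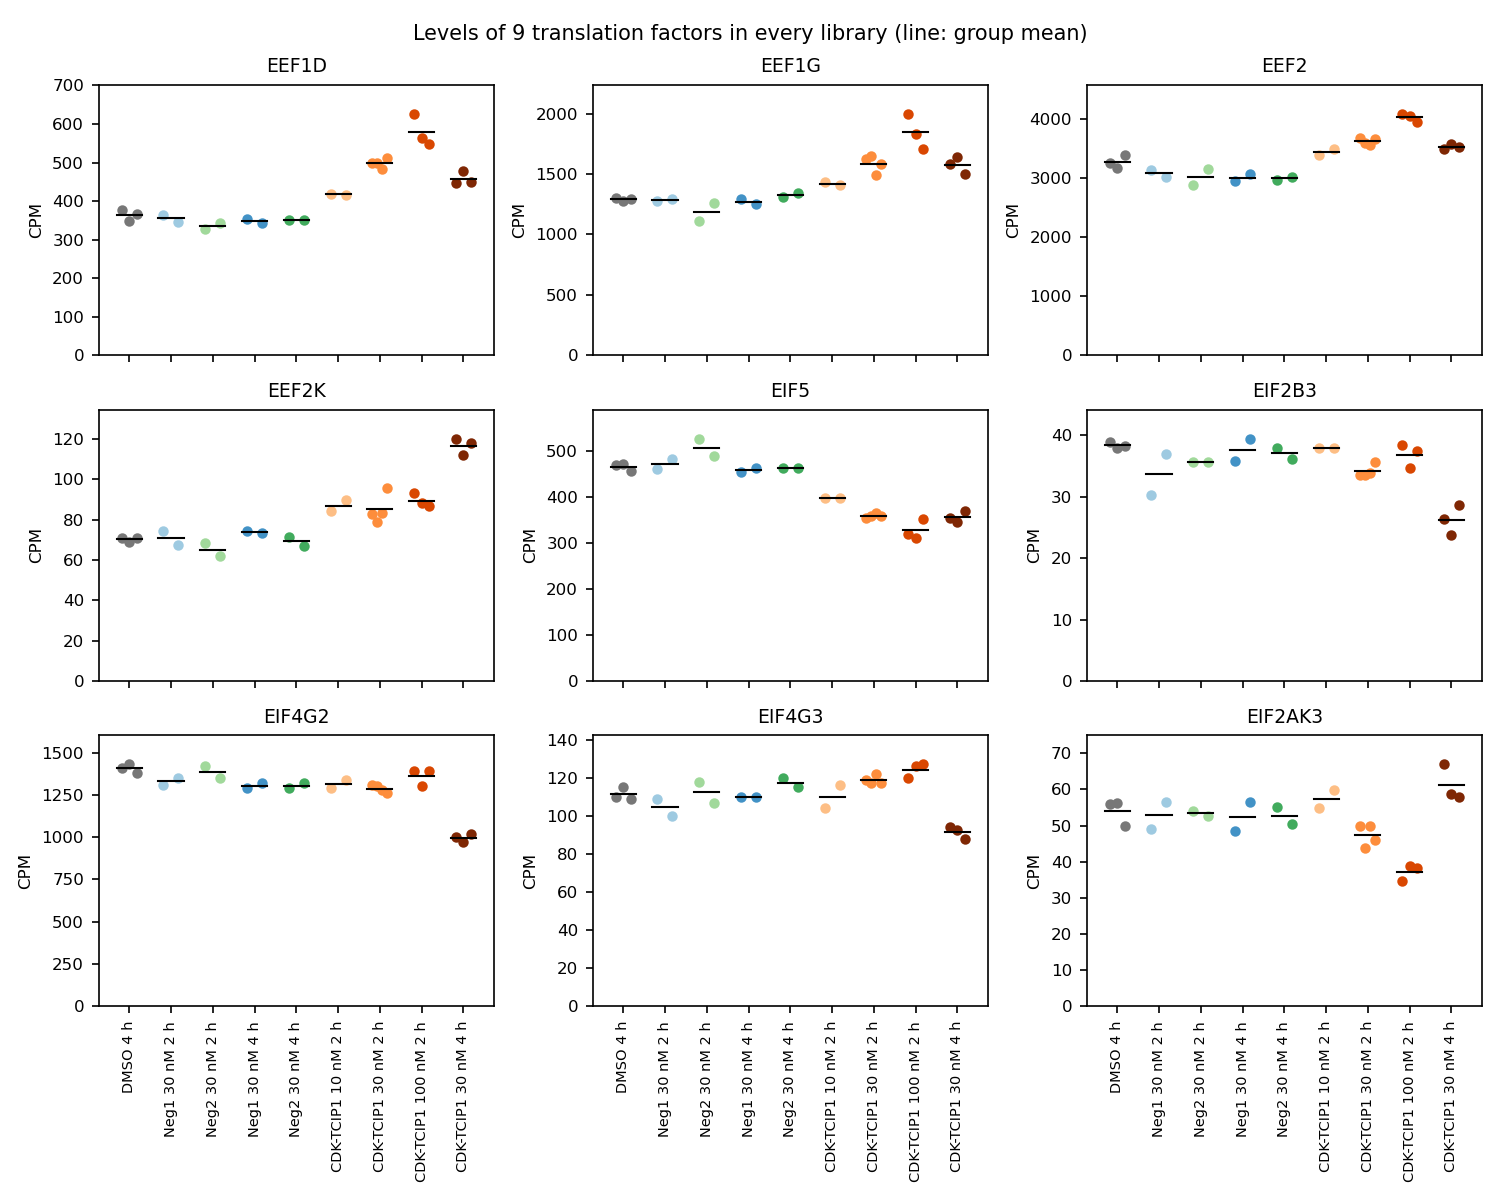
Each panel shows a gene, with the 9 groups along the x axis and CPM on the y axis from 0. Each point is a library and each line a group mean. EEF1D, EEF1G and EEF2 climb with dose at 2 h, EIF5 descends, EEF2K, EIF2B3, EIF4G2 and EIF4G3 set the 4 h CDK-TCIP1 group apart, and EIF2AK3 is lowest at 100 nM.

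The exchange factor eIF2B changed unevenly over its subunits. Of the 5 subunit mRNAs, 3 fell, 1 rose and EIF2B1 did not pass (all tested genes: 17.5% higher, 19.3% lower). EIF2B3 read 38.9, 37.9 and 38.3 CPM in the 3 DMSO libraries and 26.3, 23.7 and 28.6 CPM in the 3 libraries of CDK-TCIP1 at 4 h, apart from DMSO in every library (-0.55 ± 0.08, adjusted p = 4.9e-06, edgeR). For EIF2B3 (ENSG00000070785, chr1:44850522-44986722, minus strand), the gamma subunit, at 2 h its libraries read 37.9 and 38 CPM at 10 nM, 33.6, 33.6, 33.8 and 35.6 CPM at 30 nM and 38.4, 34.7 and 37.4 CPM at 100 nM, and the 8 libraries of Neg1 and Neg2 read 30.3 to 39.4 CPM. EIF2B4 read 29.6, 30.6 and 33.1 CPM in the 3 DMSO libraries and 20.9, 19.9 and 21.6 CPM in the 3 libraries of CDK-TCIP1 at 4 h, again with no overlap (-0.58 ± 0.10, adjusted p = 7.95e-05, edgeR). For EIF2B4 (ENSG00000115211, chr2:27364352-27370486, minus strand), the delta subunit, at 2 h its libraries read 20.2 and 26.9 CPM at 10 nM, 23.7, 20.1, 22.6 and 25.6 CPM at 30 nM and 26.3, 21.3 and 27 CPM at 100 nM, and the 8 libraries of Neg1 and Neg2 read 26.4 to 32.8 CPM. EIF2B4 overlaps the antisense gene GTF3C2-AS2 by 3271 bases. EIF2B2, the beta subunit, went the other way, from 44.1 ± 5.06 to 57 ± 3.6 CPM (0.37 ± 0.08, adjusted p = 0.00121, edgeR). EIF2B5, the catalytic epsilon subunit, fell by a small step (-0.17 ± 0.07, adjusted p = 0.0438, edgeR). EIF2B5 lost its call without DMSO replicate 2, DMSO replicate 3 or CDK-TCIP1 4 h replicate 2, with log2 fold changes of -0.18, -0.15 and -0.10, with edgeR adjusted p-values of 0.0699, 0.115 and 0.282. EIF2B5 also did not pass with length-scaled counts (-0.07, adjusted p = 0.607) or with protein-coding transcripts alone (-0.13, adjusted p = 0.179, edgeR).

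Factors of the ternary complex, scanning and start codon choice numbered 12 tested, of which 4 fell, 1 rose and 7 did not pass. Their median log2 fold change was 0.0006, and that of all genes was 0.0342. Among all tested genes 19.3% fell and 17.5% rose. EIF5, which triggers GTP hydrolysis on eIF2 at the start codon, read 470, 473 and 457 CPM in DMSO and 355, 346 and 371 CPM at 4 h, with no overlap (-0.38 ± 0.05, adjusted p = 3.38e-07, edgeR). EIF1AX, which opens the small subunit for scanning, fell from 334 ± 8.08 to 258 ± 9.12 CPM (-0.37 ± 0.05, adjusted p = 8.47e-07, edgeR). EIF2S2, the beta subunit of eIF2, fell by -0.30 ± 0.05, adjusted p = 6.27e-05 (edgeR, log2), while the alpha subunit EIF2S1, the target of the stress kinases, had 196 ± 5.5 and 207 ± 4.55 CPM and did not pass (0.08 ± 0.05, adjusted p = 0.255, edgeR). EIF2S1 passed in opposite directions with length-scaled counts (-0.37, adjusted p = 0.00117) and with protein-coding transcripts alone (0.18, adjusted p = 0.0106, edgeR). The other called fall was EIF1B (log2 -0.20 ± 0.07), a paralog of EIF1. EIF1, which guards start codon choice, did not pass (0.02 ± 0.05, adjusted p = 0.77, edgeR), and its sign turned without the filter, with length-scaled counts and without DMSO replicate 2. When only protein-coding transcripts were counted EIF1 rose (0.27, adjusted p = 0.00209, edgeR). EIF2D, which can load tRNA without GTP, rose (0.20 ± 0.06, adjusted p = 0.0145, edgeR). EIF2D lost its call without DMSO replicate 1, DMSO replicate 2 or CDK-TCIP1 4 h replicate 2, with log2 fold changes of 0.14, 0.17 and 0.16, with edgeR adjusted p-values of 0.128, 0.0671 and 0.0875. EIF2D did not pass with length-scaled counts (0.15, adjusted p = 0.12, edgeR) or without the filter on low counts.

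Among the 4 kinases that phosphorylate eIF2 alpha under stress, only EIF2AK4 was called at 4 h, where 36.8% of all tested genes were. EIF2AK4 read 14.3, 18.9 and 21.3 CPM in the 3 DMSO libraries and 12.8, 14.9 and 13.7 CPM in the 3 libraries of CDK-TCIP1 at 4 h, which overlap, with a called fall of -0.39 ± 0.12, adjusted p = 0.0131 (log2, edgeR). For EIF2AK4 (ENSG00000128829, chr15:39934146-40035591, plus strand), which encodes the amino acid sensor GCN2, at 2 h its libraries read 17.3 and 15.9 CPM at 10 nM, 16.6, 16.6, 18.5 and 17.6 CPM at 30 nM and 16.7, 17.3 and 19.8 CPM at 100 nM, and the 8 libraries of Neg1 and Neg2 read 14.4 to 20.5 CPM. EIF2AK4 lost its call without DMSO replicate 3 or CDK-TCIP1 4 h replicate 1, with log2 fold changes of -0.28 and -0.34, with edgeR adjusted p-values of 0.101 and 0.0608. Length-scaled counts turned its sign to 0.66 (adjusted p = 0.0786, edgeR), so its direction depends on how transcripts are counted. EIF2AK3, the endoplasmic reticulum kinase PERK, did not pass at 4 h against DMSO (0.18 ± 0.08, adjusted p = 0.0857, edgeR), though its 3 treated libraries (66.9, 58.8 and 57.9 CPM) all exceeded DMSO (56, 56.3 and 49.8 CPM), and it passed with protein-coding transcripts alone (0.22, adjusted p = 0.0286). At 100 nM and 2 h EIF2AK3 fell, to 34.6, 38.9 and 38.2 CPM (-0.54 ± 0.08, adjusted p = 8.59e-06, edgeR). EIF2AK2, the double-stranded RNA sensor PKR, had 83.9 ± 6.93 CPM in DMSO and 86.2 ± 9.08 CPM at 4 h and did not pass (0.04 ± 0.08, adjusted p = 0.74, edgeR).

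The eIF3 scaffold split by subunit at 4 h, with 5 of 14 up, 3 down and 6 not passing (all tested genes: 17.5% higher, 19.3% lower). The median log2 fold change of the 14 was 0.14. The rises were EIF3K (0.24 ± 0.05, adjusted p = 0.00114, edgeR), EIF3L (0.20 ± 0.04, adjusted p = 0.00075, edgeR), EIF3I (0.20 ± 0.06, adjusted p = 0.00844, edgeR), EIF3D (log2 0.16 ± 0.05) and EIF3A (log2 0.15 ± 0.04). EIF3K and EIF3L are peripheral subunits that pair with each other, and EIF3I belongs to the module around EIF3B. EIF3B itself fell (-0.16 ± 0.04, adjusted p = 0.00304, edgeR), as did EIF3J, the loosely bound subunit (-0.33 ± 0.07, adjusted p = 0.000528, edgeR). EIF3C read 621, 583 and 623 CPM in the 3 DMSO libraries and 441, 475 and 415 CPM in the 3 libraries of CDK-TCIP1 at 4 h, with no overlap (-0.46 ± 0.12, adjusted p = 0.00489, edgeR). For EIF3C (ENSG00000184110, chr16:28688558-28735730, plus strand), a core subunit, at 2 h its libraries read 484 and 564 CPM at 10 nM, 529, 590, 510 and 582 CPM at 30 nM and 701, 672 and 674 CPM at 100 nM, and the 8 libraries of Neg1 and Neg2 read 308 to 610 CPM. Its near-identical copy EIF3CL can take the same reads, and the lowest EIF3C value, 308 CPM in replicate 1 of Neg2 at 2 h, stood beside the highest EIF3CL value of that group, 298 CPM. With the copies summed the means were 646 ± 14.4 CPM in DMSO and 497 ± 24.0 CPM at 4 h (SD, n = 3 each), and the fall passed at -0.38 on the log2 scale (edgeR, adjusted p = 1.46e-07). Without CDK-TCIP1 4 h replicate 2 the log2 fold change of EIF3I was 0.16 and did not pass (edgeR, adjusted p = 0.0652). With length-scaled counts EIF3I (0.17, adjusted p = 0.058), EIF3B (-0.12, adjusted p = 0.0538) and EIF3J (-0.25, adjusted p = 0.113) did not pass in edgeR, and with protein-coding transcripts alone EIF3L did not (0.36, adjusted p = 0.0978, edgeR).

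Of the cap-binding complex and its helpers, 5 of 10 tested fell at 4 h against DMSO and 1 rose. All 3 eIF4G scaffolds were among the falls. Among all tested genes 19.3% fell and 17.5% rose. Against Neg1 and against Neg2 at 4 h, 3 of the 10 fell: EIF4G2, EIF4G3 and EIF4A2. EIF4G2 read 1410, 1430 and 1380 CPM in the 3 DMSO libraries and 1000, 973 and 1020 CPM in the 3 libraries of CDK-TCIP1 at 4 h, far apart (-0.50 ± 0.04, adjusted p = 3.45e-10, edgeR). For EIF4G2 (ENSG00000110321, chr11:10797050-10809110, minus strand), also called DAP5, a scaffold that lacks the eIF4E site, at 2 h its libraries read 1290 and 1340 CPM at 10 nM, 1310, 1300, 1280 and 1260 CPM at 30 nM and 1390, 1300 and 1390 CPM at 100 nM, and the 8 libraries of Neg1 and Neg2 read 1290 to 1420 CPM. The 2 h groups thus lay close to Neg1 and Neg2, and the 4 h group below every other library. EIF4G3, a paralog of EIF4G1, fell from 111 ± 2.8 to 91.6 ± 3.28 CPM (-0.28 ± 0.06, adjusted p = 0.000216, edgeR). EIF4G1 read 811, 787 and 760 CPM in the 3 DMSO libraries and 712, 697 and 697 CPM in the 3 libraries of CDK-TCIP1 at 4 h, a smaller fall (-0.16 ± 0.05, adjusted p = 0.00826, edgeR). For EIF4G1 (ENSG00000114867, chr3:184314495-184335358, plus strand), at 2 h its libraries read 771 and 784 CPM at 10 nM, 843, 778, 789 and 834 CPM at 30 nM and 830, 872 and 825 CPM at 100 nM, and the 8 libraries of Neg1 and Neg2 read 676 to 766 CPM. Cap-binding EIF4E did not pass in any comparison. EIF4E read 195, 207 and 208 CPM in the 3 DMSO libraries and 194, 194 and 203 CPM in the 3 libraries of CDK-TCIP1 at 4 h (-0.04 ± 0.06, adjusted p = 0.603, edgeR). For EIF4E (ENSG00000151247, chr4:98871684-98930637, minus strand), at 2 h its libraries read 200 and 220 CPM at 10 nM, 194, 185, 215 and 192 CPM at 30 nM and 181, 186 and 199 CPM at 100 nM, and the 8 libraries of Neg1 and Neg2 read 188 to 210 CPM. At 4 h its groups overlapped, while the 3 libraries at 100 nM all read below the 2 at 10 nM. EIF4G1 did not pass against Neg1 (-0.12 ± 0.05, adjusted p = 0.0977, edgeR) or Neg2 (-0.09 ± 0.05, adjusted p = 0.214, edgeR) at 4 h. With length-scaled counts EIF4G1 did not pass (-0.13, adjusted p = 0.138, edgeR).

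Of the 3 eIF4A helicases, EIF4A2 and EIF4A3 fell at 4 h. EIF4A1 read 776, 742 and 756 CPM in the 3 DMSO libraries and 679, 740 and 732 CPM in the 3 libraries of CDK-TCIP1 at 4 h, lower in every treated library but not past the test (-0.08 ± 0.05, adjusted p = 0.192, edgeR). For EIF4A1 (ENSG00000161960, chr17:7572706-7579005, plus strand), the main helicase of eIF4F, at 2 h its libraries read 837 and 802 CPM at 10 nM, 804, 837, 798 and 832 CPM at 30 nM and 939, 872 and 888 CPM at 100 nM, and the 8 libraries of Neg1 and Neg2 read 692 to 761 CPM. EIF4A2, its paralog, fell at 4 h (-0.17 ± 0.05, adjusted p = 0.0113, edgeR) and more at 100 nM and 2 h (-0.49 ± 0.05, adjusted p = 2.57e-08, edgeR). EIF4A3, the exon junction complex helicase, fell slightly at 4 h (-0.15 ± 0.05, adjusted p = 0.0167, edgeR), and EIF4H, a cofactor of the helicase, rose (0.16 ± 0.05, adjusted p = 0.00764, edgeR), though not without the filter on low counts. Without CDK-TCIP1 4 h replicate 1 the log2 fold change of EIF4A2 was -0.14 and did not pass (edgeR, adjusted p = 0.063). Without DMSO replicate 3 the log2 fold change of EIF4A3 was -0.12 and did not pass (edgeR, adjusted p = 0.0839). EIF4A3 also did not pass with length-scaled counts (-0.15, adjusted p = 0.0702) or protein-coding transcripts alone (-0.12, adjusted p = 0.0774, edgeR).

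Protein-coding transcripts of EIF4A2 had larger fitted falls than the gene. Their mean was 116 CPM in DMSO, 65.9 CPM at 4 h and 36.8 CPM at 100 nM and 2 h. Transcripts with a retained intron had 153, 160 and 112 CPM in the same groups, and those annotated for nonsense-mediated decay 104, 106 and 117 CPM. In DMSO the coding transcripts held 31.1% ± 3.10 of the gene's estimated counts (SD, n = 3), and with CDK-TCIP1 21.8% ± 3.56 at 10 nM (n = 2), 16.3% ± 5.07 at 30 nM (n = 4) and 13.8% ± 1.88 at 100 nM (n = 3) at 2 h, and 19.8% ± 0.993 at 30 nM and 4 h (n = 3). The means of Neg1 and Neg2 lay between 30.3% and 34.1%. The transcript EIF4A2-201 read 50.2, 79.1 and 64.2 CPM in DMSO and 0.0267, 4.47 and 13.8 CPM at 100 nM. EIF4A2-202, annotated as a target of nonsense-mediated decay, read 87.2, 78.8 and 80.3 CPM in DMSO and 67.4, 77.6 and 85.5 CPM at 100 nM, groups that overlap. With protein-coding transcripts alone the log2 fold change of EIF4A2 was -1.64 at 100 nM (adjusted p = 4.74e-08) and -0.77 at 4 h (adjusted p = 0.000474, edgeR), over 1.5 times the value from all transcripts. Transcript estimates share reads by a model and are less certain than gene sums. In EIF5 transcripts differed too: EIF5-202 read 187, 201 and 172 CPM in DMSO and 92.8, 82.9 and 122 CPM at 100 nM, whereas EIF5-201 read 72.4, 74.7 and 76.2 and 62.3, 80.4 and 100 CPM, groups that overlap.

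**Figure D4:**
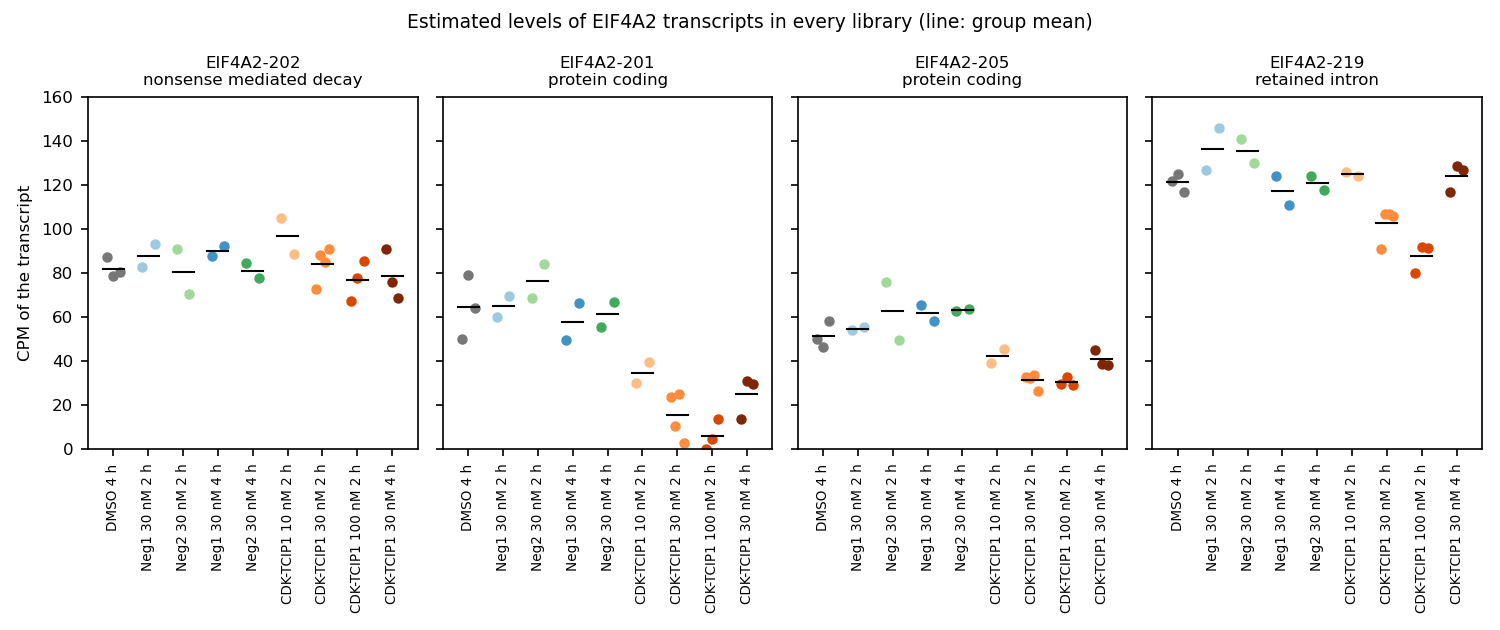
Panels show the 4 EIF4A2 transcripts with over 5% of the gene's counts, with the 9 groups on the x axis and estimated CPM on the y axis from 0. Points are libraries and lines group means. EIF4A2-201 and EIF4A2-205 are lower in every CDK-TCIP1 group, the groups of EIF4A2-202 overlap, and EIF4A2-219 is lowest at 100 nM.

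The inhibitors of eIF4E differed in their calls at 4 h. EIF4EBP1 (-0.05 ± 0.10, adjusted p = 0.729, edgeR) and EIF4EBP2 (-0.09 ± 0.04, adjusted p = 0.128, edgeR), which block eIF4E when mTOR is off, did not pass. EIF4EBP1 rose at 100 nM and 2 h, from 20.9 ± 0.232 to 27.7 ± 3.59 CPM (0.41 ± 0.10, adjusted p = 0.00234, edgeR). EIF4EBP3 read 0.64, 0.382 and 0.857 CPM in the 3 DMSO libraries and 2.27, 0.965 and 2.4 CPM in the 3 libraries of CDK-TCIP1 at 4 h, all low and apart (1.58 ± 0.53, adjusted p = 0.0208, edgeR). For EIF4EBP3 (ENSG00000243056, chr5:140547666-140549578, plus strand), at 2 h its libraries read 2.24 and 2.1 CPM at 10 nM, 2.69, 1.96, 2.5 and 3.93 CPM at 30 nM and 2.56, 2.93 and 1.78 CPM at 100 nM, and the 8 libraries of Neg1 and Neg2 read 0.101 to 2.81 CPM. EIF4EBP3 did not pass against Neg1 (0.67 ± 0.57, adjusted p = 0.417, edgeR) or Neg2 (0.47 ± 0.56, adjusted p = 0.581, edgeR) at 4 h. Its fitted log2 fold changes at 2 h against DMSO at 4 h were 1.79 ± 0.57, 2.14 ± 0.51 and 1.95 ± 0.53 at 10, 30 and 100 nM, all called. At the matched time of 2 h, 30 nM differed from Neg1 by log2 0.71, which did not pass, and from Neg2 by 2.72. It lies inside the read-through gene ANKHD1-EIF4EBP3 (76.0 CPM on average) and against SRA1 on the opposite strand, so its reads are uncertain. EIF4EBP3 lost its call without DMSO replicate 1, DMSO replicate 2, CDK-TCIP1 4 h replicate 1 or CDK-TCIP1 4 h replicate 3, with log2 fold changes of 1.58, 1.32, 1.42 and 1.37, with edgeR adjusted p-values of 0.0545, 0.0938, 0.0675 and 0.0766. With length-scaled counts it did not pass (1.56, adjusted p = 0.0528, edgeR). EIF4ENIF1, which carries eIF4E into the nucleus, read 55.1, 50.2 and 46.3 CPM in DMSO and 67.8, 60 and 64.9 CPM at 4 h, a rise of 0.35 ± 0.08, adjusted p = 0.000975 (edgeR) that was 0.07 with length-scaled counts (adjusted p = 0.801). It lies wholly within the annotated span of DRG1 on the opposite strand. Overlap of exons was not measured, so whether the pair share reads is not known.

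Of the eIF5A pair, EIF5A2 was called at 4 h. EIF5A, which helps the ribosome through difficult peptide bonds, had 730 ± 31.7 CPM in DMSO and 769 ± 14.9 CPM at 4 h and did not pass (0.07 ± 0.05, adjusted p = 0.292, edgeR). EIF5A2 read 17.2, 15.5 and 15.7 CPM in the 3 DMSO libraries and 11.4, 9.79 and 11.3 CPM in the 3 libraries of CDK-TCIP1 at 4 h, with no overlap (-0.58 ± 0.11, adjusted p = 0.00014, edgeR). For EIF5A2 (ENSG00000163577, chr3:170888415-170908693, minus strand), the low-level paralog, at 2 h its libraries read 11.9 and 13.1 CPM at 10 nM, 11.7, 12.4, 12.6 and 9.71 CPM at 30 nM and 11, 11.5 and 12 CPM at 100 nM, all below the 8 libraries of Neg1 and Neg2 (15 to 18.4 CPM). EIF5AL1, a retrocopy near 2 CPM whose reads may be those of EIF5A, fell too (log2 -1.24 ± 0.29). EIF6, which keeps the large subunit from joining early, did not pass at 4 h (0.06 ± 0.07, adjusted p = 0.512, edgeR).

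The question of dose was asked at 2 h with 10, 30 and 100 nM, each against DMSO at 4 h. At 10 nM 7 members rose and 4 fell (5.93% and 7.12% of all genes, 13.1% in all), at 30 nM 21 rose and 9 fell (16.7% and 17.6%, 34.3% in all), and at 100 nM 30 rose and 12 fell (20.6% and 22.0%). The 10 nM counts were between 1 and 5 higher and 0 and 2 lower when any 1 library was left out, among them 1 and 0 without CDK-TCIP1 10 nM replicate 1. At 100 nM the median member stood at log2 0.11 and the median gene at 0.02. In the deposited TPM these medians were -0.25 and -0.43, over genes with at least 1 TPM in DMSO. The rises here are thus relative to the bulk of genes, and some members called higher read lower in TPM. Among members at or above an average log2 CPM of 2, EEF1D had the largest rise at 100 nM, with 419 and 416 CPM at 10 nM, 499, 498, 484 and 511 CPM at 30 nM and 627, 564 and 547 CPM at 100 nM, 3 sets of libraries that do not overlap. Its log2 fold change against DMSO was 0.20 ± 0.06, 0.45 ± 0.05 and 0.67 ± 0.05 in turn (edgeR, adjusted p = 0.0176, 4.4e-08 and 7.67e-11). At 100 nM EEF1G (0.52 ± 0.05), EIF3K (0.51 ± 0.06), EIF3I (0.48 ± 0.06), EIF5A (0.46 ± 0.05), EEF1B2 (0.43 ± 0.06), EEF1A1 (0.36 ± 0.05) and EEF2 (0.30 ± 0.04) also rose on the log2 scale. Of the 14 eIF3 genes, 11 rose and 0 fell at 100 nM, against 5 and 3 at 30 nM and 4 h. Of 10 members with a TOP tract in the literature, a list chosen with earlier results known, 9 rose and 0 fell at 100 nM, with a median of 0.40. EIF5 went from 398 and 398 CPM at 10 nM to 320, 311 and 352 CPM at 100 nM, by -0.51 ± 0.05, adjusted p = 3.1e-09 (edgeR) against DMSO.

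Between 100 and 10 nM at the same time, 22 members rose and 6 fell (11.0% and 14.2% of all genes, 25.1% in all). The count of 22 was 11 without CDK-TCIP1 10 nM replicate 1, 12 without its replicate 2, and 14 without replicate 1 of CDK-TCIP1 at 100 nM and replicate 1 of Neg2 at 2 h, an alternative chosen after the data were seen. EEF1D rose between these doses (0.47 ± 0.06, adjusted p = 1.02e-06, edgeR), as did EEF1G (0.38 ± 0.06, adjusted p = 4.57e-05, edgeR) and EIF5A (0.33 ± 0.06, adjusted p = 0.00021, edgeR). EIF2AK3 fell (-0.62 ± 0.09, adjusted p = 1.89e-05, edgeR), as did EIF4A2 (-0.42 ± 0.06, adjusted p = 7.04e-06, edgeR) and EIF4ENIF1 (-0.36 ± 0.09, adjusted p = 0.00418, edgeR). EEF2K (0.04 ± 0.07, adjusted p = 0.756, edgeR) and EIF2B4 (0.07 ± 0.12, adjusted p = 0.726, edgeR), both called at 10 nM against DMSO, did not pass between the doses.

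At 30 nM, 2 h could also be compared with Neg1 and Neg2 at the same time. Against Neg1 25 rose and 5 fell (13.6% and 14.2% of all genes, 27.8% in all), and against Neg2 24 rose and 8 fell (14.8% and 15.7%, 30.5% in all). The count of 25 was 12 without Neg1 2 h replicate 1 and 16 without its replicate 2, and without Neg2 2 h replicate 1 the counts of 24 and 8 were 12 and 5. From 2 h to 4 h 5 members rose and 15 fell (10.3% and 11.6% of all genes, 21.9% in all). To test the change of the effect itself, the difference from the mean of Neg1 and Neg2 was taken at each time and the 2 were compared: it was higher, in signed log2 terms, at 4 h in 4 members and lower in 11 (5.61% and 6.37% of all genes), and the 11 were 7 without Neg1 4 h replicate 1. EEF2K had a log2 effect of 0.32 at 2 h and 0.71 at 4 h. EIF2B3 had -0.02 and -0.51, and EIF4G2 -0.07 and -0.39, so that their falls appeared by 4 h. EIF4G3 changed from 0.13 to -0.31 and EIF4G1 from 0.15 to -0.10. EIF2AK3 and EIF4ENIF1 went the other way, from -0.16 to 0.22 and from -0.08 to 0.34. EEF1D (0.53 and 0.39) and EIF5 (-0.45 and -0.37) did not pass this test.

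**Figure D5:**
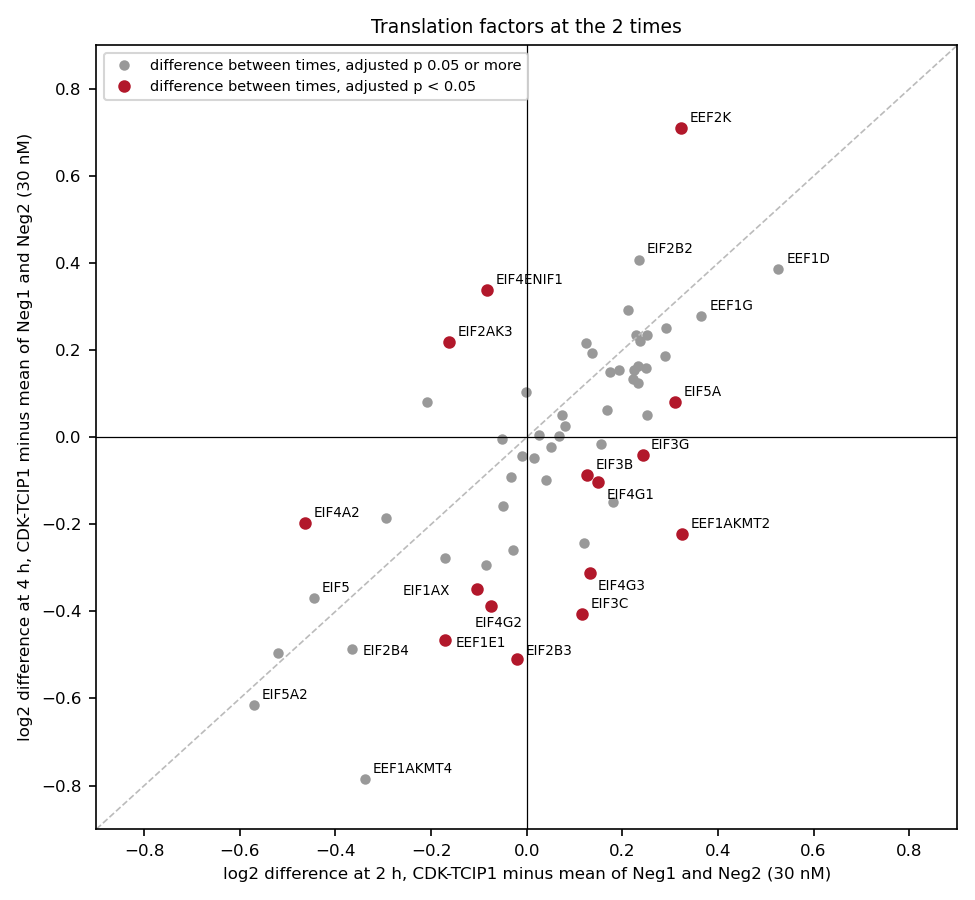
The x axis gives the log2 difference of CDK-TCIP1 30 nM from the mean of Neg1 and Neg2 at 2 h, and the y axis the same difference at 4 h, for members whose average log2 CPM was at least 2, without EIF3CL. Red points differ between the times at an adjusted p under 0.05, and the dashed line marks equal effects. EEF2K, EIF4ENIF1, EIF2AK3 and EIF4A2 lie above the line and the other red points below it.

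Neg1 and Neg2 differ from CDK-TCIP1 in a way the labels do not give, and all 3 were compared at the matched dose of 30 nM. No member was called for Neg1 against DMSO at 4 h, Neg2 against DMSO at 4 h, or Neg1 against Neg2 over both times (0 of 66 each by edgeR and by DESeq2; 0.0% of all genes by edgeR). At an unadjusted p under 0.05 the counts were 4, 2 and 3 members, where 4.34%, 5.99% and 3.85% of all genes had one. Of the 53 members whose average log2 CPM was at least 5, the interval of 1.96 SE around the log2 difference lay within 0.5 of 0 in 52 in each of the 3 comparisons, the exception being EIF3CL. Smaller differences are not excluded by these libraries. For EEF1D the difference between Neg1 and Neg2 was 0.04 ± 0.04, for EEF2K 0.11 ± 0.06 and for EIF4G2 -0.03 ± 0.03 (log2 ± SE, 4 libraries each).

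Other genes of the pathway, from lists chosen with earlier results known, were counted at 30 nM and 4 h against DMSO (17.5% of all genes rose and 19.3% fell), and log2 fold changes ± SE are edgeR's. Of 8 termination and recycling factors 5 fell and 1 rose, with DENR (-0.51 ± 0.05) and ABCE1 (-0.40 ± 0.06) the largest falls and MCTS1 (0.19 ± 0.06) the rise; DENR and MCTS1 form one heterodimer that recycles ribosomes. Of 11 further initiation helpers 5 fell and 1 rose, led by DDX3X (-0.76 ± 0.05), a helicase, and NCBP1 (-0.53 ± 0.06), a nuclear cap-binding protein, and the rise was GCN1 (0.23 ± 0.05), the activator of GCN2. DDX3X had 1020 CPM in DMSO, 603 CPM at 4 h and 538 CPM at 100 nM and 2 h. Of 7 poly(A)-binding proteins and partners 2 rose, PAIP2 (0.23 ± 0.07) and TPT1 (0.22 ± 0.06), and 3 fell, with PAIP1 (-0.30 ± 0.08) and PABPC4 (-0.24 ± 0.04) the largest. Of 11 upstream kinases, mTOR regulators and phosphatase subunits 3 rose, with TSC1 (0.98 ± 0.08) and RPS6KB2 (0.54 ± 0.08) the largest, and 4 fell, with MKNK1 (-0.72 ± 0.13), a kinase of eIF4E, and DDIT4 (-0.25 ± 0.10) the largest. TSC1, which restrains mTOR, had 90.8 CPM in DMSO and 180 CPM at 4 h. DDIT4, an inhibitor of mTOR, had 84.3 CPM in DMSO, 70.8 CPM at 4 h and 27.8 CPM at 100 nM and 2 h. Of 8 enzymes that modify eIF5A or eEF2, DHPS (0.32 ± 0.07) rose and DPH1 (-0.29 ± 0.11) and DPH2 (-0.24 ± 0.08) fell. Of 9 mitochondrial translation factors 2 rose, MTRF1L (0.37 ± 0.11) and TUFM (0.17 ± 0.06), and 2 fell, MTIF2 (-0.57 ± 0.07) and GFM1 (-0.53 ± 0.07).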

How the data were processed

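The authors deposited, for each of the 23 libraries, kallisto's estimated counts and TPM for 227912 transcripts. FastQC, cutadapt, kallisto and DESeq2 were used, per the submitters' processing notes, and no version, transcript set or strandedness is given in the sources used here. Transcripts were matched without version numbers to GENCODE 29 (GRCh38; 205964 matched), and unmatched ones (1.16 to 1.28% of counts) were left out. Counts were summed per gene and rounded. Per the sample titles, groups were DMSO, Neg1, Neg2 and CDK-TCIP1. All genes were tested in a single fit of 23 libraries with a coefficient per group and 14 residual degrees of freedom, with edgeR (4.0.16, under R 4.3.3) and its quasi-likelihood F test, with TMM, filterByExpr and Benjamini-Hochberg adjustment. A gene is called, or rose or fell, at an adjusted p under 0.05. SEs were taken as the absolute log2 fold change over the root of F. Alternatives were DESeq2 1.42.0, its size factors in edgeR, no filter, length-scaled counts (from the deposited TPM), protein-coding transcripts alone, the compared groups alone, a replicate block, and leaving out each library. The tests were tested on simulated data.

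The members and lists were chosen with earlier results of these data known. Named are, per role list, the 3 called members with the largest rise and fall at 30 nM and 4 h against DMSO (average log2 CPM at least 2), fixed regulators and core factors, and 2 genes each way per pathway list. Values in every library are given for the 12 with the largest change and for EIF4E, EIF4A1, EIF4G1, EEF1A1 and EEF2. Members named beyond the rule (EIF1B, EIF2A, EIF2B1, EIF2S3, EIF2S3B, EIF3A, EIF3CL, EIF3D, EIF3F, EIF3M, EIF5AL1 and those that failed the filter) were chosen after their values were seen. EIF1AY lies on chromosome Y and its values are not reported here.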

Additional observations from a re-analysis of the deposited data

Results flagged for a closer look

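In the group of 4 libraries of CDK-TCIP1 at 30 nM and 2 h, 2 of 44 members screened had 1 library apart from the others, and chance alone sets about 1 in 20 groups apart in this way. EIF2B3 read 35.6 CPM in replicate 4 and 33.6, 33.6 and 33.8 CPM in the others. EIF4ENIF1 read 53.9 CPM in replicate 1 and 44.7, 46.0 and 46.1 CPM in the others.

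The effect of CDK-TCIP1 at 30 nM against the mean of Neg1 and Neg2 differed between 2 h and 4 h in 13 named members by the edgeR interaction test. The 4 h effect exceeded that at 2 h, on the log2 scale, by 0.42 (adjusted p = 0.0065) in EIF4ENIF1, 0.39 (adjusted p = 0.003) in EEF2K, 0.38 (adjusted p = 0.0168) in EIF2AK3 and 0.27 (adjusted p = 0.0079) in EIF4A2. It was lower at 4 h in signed terms, by log2 differences of -0.52 (adjusted p = 0.0309) in EIF3C, -0.49 (adjusted p = 0.0022) in EIF2B3, -0.44 (adjusted p = 0.0002) in EIF4G3, -0.31 (adjusted p = 0.0002) in EIF4G2, -0.30 (adjusted p = 0.0341) in EEF1E1, -0.25 (adjusted p = 0.0067) in EIF4G1, -0.25 (adjusted p = 0.009) in EIF1AX, -0.23 (adjusted p = 0.026) in EIF5A and -0.21 (adjusted p = 0.0066) in EIF3B. These differences are signed, so the effect need not be larger at 4 h. In EIF5A it was positive at both times and shrank, from 0.31 to 0.08. In EIF4A2 it was negative at both times and shrank, from -0.46 to -0.20. EIF3C shares reads with EIF3CL.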

How the results depend on the processing

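DESeq2 and edgeR with DESeq2 size factors kept every count within 1.5 times and every named member on its side of the threshold. With length-scaled counts, which called 4531 genes at 30 nM and 4 h against DMSO in place of 6535, the members higher were 8 against DMSO, 9 against Neg1 and 8 against Neg2 at 4 h, 13 against Neg1 at 2 h, 3 at 10 nM, 13 between 100 and 10 nM and 1 in the difference between times, and those lower were 0 at 10 nM, 5 at 30 nM and 2 h, 7 at 100 nM, 8 from 2 h to 4 h and 3 in the difference between times. With protein-coding transcripts alone, 22 were higher against Neg2 at 4 h and 12 at 10 nM. In fits of only the groups compared, 20 were higher against Neg2 at 4 h, 13 at 10 nM and 7 between 100 and 10 nM. Without the filter, 12 were higher between 100 and 10 nM, and 1 member was lower in each comparison of Neg1 or Neg2 with DMSO or with each other. Without CDK-TCIP1 100 nM replicate 1 and Neg2 2 h replicate 1 (chosen after seeing the data), 13 were higher against Neg2 at 2 h and 14 between 100 and 10 nM, and 14 were lower at 30 nM and 2 h. At 30 nM and 4 h against DMSO, 6535 of all 17743 genes were called in the main fit. With protein-coding transcripts alone 5392 of 12303 were, in the compared groups alone 6666 of 14858, and without the filter 6199 of 38466. Shares of all genes in each direction are not given for these settings, so the shifts are not shown to be particular to the members. The cause was not tested.

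With a replicate block, 2 members were lower at 10 nM, and no other count left 1.5 times its value. Replicate numbers showed no sign of pairing. Over 78 same-numbered library pairs the correlation of deviations from group means ran from -0.044 to 0.044, and 5 of 23 libraries lay closest to one of their own number. These values cannot exclude that samples were handled in pairs, and in groups of 2 the deviations mirror each other.

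Leaving out 1 library at a time gave 10 to 16 higher and 18 to 21 lower for 30 nM against DMSO at 4 h, 10 to 15 higher and 10 to 15 lower for 30 nM against Neg1 at 4 h, 5 to 12 higher and 11 to 14 lower for 30 nM against Neg2 at 4 h, 12 to 24 higher and 4 to 5 lower for 30 nM against Neg1 at 2 h, 12 to 24 higher and 5 to 8 lower for 30 nM against Neg2 at 2 h, 1 to 5 higher and 0 to 2 lower for 10 nM, 15 to 20 higher and 8 to 10 lower for 30 nM at 2 h, 25 to 29 higher and 9 to 12 lower for 100 nM, 11 to 21 higher and 4 to 7 lower for 100 against 10 nM, 4 to 6 higher and 12 to 14 lower for 4 h against 2 h, 3 to 4 higher and 7 to 14 lower in the difference between times, and 0 to 1 higher between Neg1 and Neg2.

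Signs turned for EIF1 (-0.01 without the filter, -0.0872 with length-scaled counts, -0.0196 without DMSO replicate 2, with a range over single libraries left out up to 0.0320), EIF2AK2 (-0.0401 without DMSO replicate 1, -0.02 without CDK-TCIP1 4 h replicate 3, with a range up to 0.124), EIF2AK4 (0.66, length-scaled) and EIF2S1 (-0.37, length-scaled). Members under a few CPM, such as EIF4EBP3, are limited by depth.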
